A study of Mus musculus with 7 samples.

Results

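The myogenic regulatory factors, the satellite cell factors Pax7 and Pax3, the Id proteins and the fusion factor Mymk were followed in quadriceps muscle of AR113Q and WT mice. The members were every array probe whose gene name on the array, or current symbol by accession, was Myod1, Myog, Myf5, Myf6, Pax7, Pax3, Id1, Id2, Id3 or Mymk. These were 11 of the 39429 probes, for 10 of 31131 genes named on the array. Pax3 had 2 probes, and the other 9 genes had 1 probe each. Mymk carries its older name, Tmem8c, on the array.

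Total RNA of the quadriceps was hybridized to single-dye Agilent mouse arrays, 1 array per mouse. There were 4 WT mice and 3 AR113Q mice, all of the strain C57BL/6 and 3 months old by the labels (90 days by the design text). AR113Q mice carry a knock-in allele of the androgen receptor with an expanded polyglutamine tract, the type of mutation that causes spinal and bulbar muscular atrophy (SBMA), and so express it wherever the receptor gene is active, not in muscle alone. The design text names the mutant group AR113Q-NCD without spelling out the suffix. The labels call the control WT, while the results text of the study describes a knock-in control with a short repeat. The sex of these mice is not in the labels, but the reporting summary of the study states that its mice were male.

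Myod1, Myf5, Myog and Myf6 encode the basic helix-loop-helix factors that commit cells to the muscle lineage and switch on muscle genes. They bind DNA as dimers with E proteins at the E-box, CANNTG. Id proteins have the helix-loop-helix part but no DNA-binding part, and they hold E proteins away from the myogenic factors. Pax7 marks the satellite cells, the stem cells of adult muscle, and Pax3 is its close relative in the embryo and in some adult satellite cells. In adult muscle, Myf6 is the most abundant of the 4 factors in fibers, Myog rises in fibers that lose their nerve, and Mymk encodes Myomaker, a membrane protein that fuses myoblasts.

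The stretches that carry the main differences are the first 30 of the 60 bases of the Myod1, Myf6 and Pax3 probes, as the array files give them. Both Pax3 probes are shown because they lie 122 bases apart in the gene and gave different calls, and the Myog probe because it is the member of the same family that did not pass the test.
Myod1, chr7:53633956-53634015 of mm9: ttttgttgttgttgttgtagtccttcagtt
Myf6, chr10:106930237-106930296 of mm9: tttaaaaagaaacttctcaccacctcaagt
Myog, chr1:136188874-136188933 of mm9: atcttgggaaccttccagtgctttgtgtat
Pax3, probe A_55_P2033705, chr1:78099294-78099353 of mm9: tgtttccggcctccacagactagacatgaa
Pax3, probe A_51_P315734, chr1:78099476-78099535 of mm9: aaatattagtctcgatcctttgataccgtg
These positions belong to the whole probes. The Myod1 and Myog probes lie on the plus strand, and the Myf6 and Pax3 probes on the minus strand.

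Each array held 43020 spots that were not controls, of which 0 were saturated, and 47.6% to 55.8% of the probes were well above background, a mark that the scanning software sets for each spot. Signals below are background-subtracted intensities in arbitrary units, and log2 signals are the same values after quantile normalization over the arrays. Probes that passed the background mark on 3 or more of the 7 arrays were tested with limma, and those with an adjusted p up to 0.05 and a log2 difference of 1 or more in either direction were called. Levels are compared between mice for 1 probe and not between probes.

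Myod1 and Myf6 fell in AR113Q muscle and 1 of the 2 Pax3 probes rose, while Myog, Pax7, Id1, Id2, Id3 and the other Pax3 probe were not called. Of the 11 probes, 9 were tested. Those for Myf5 and Mymk missed the filter. Among the 9, 2 were called lower and 1 was called higher. Of all 20991 probes tested, 12.6% were called lower and 12.2% higher, 24.8% in all, so a call was common on these arrays. On the log2 scale the same 3 member probes had no overlap between the genotypes, against 49.6% of all probes tested. Without the fold threshold both Pax3 probes passed, which made 4 of the 9, against 43.8% of all probes. In the normalized values of the authors, which list 8 member probes, Myod1 and Myf6 were called, 2 of the 8, against 8.56% of all probes listed.

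**Figure D1:**
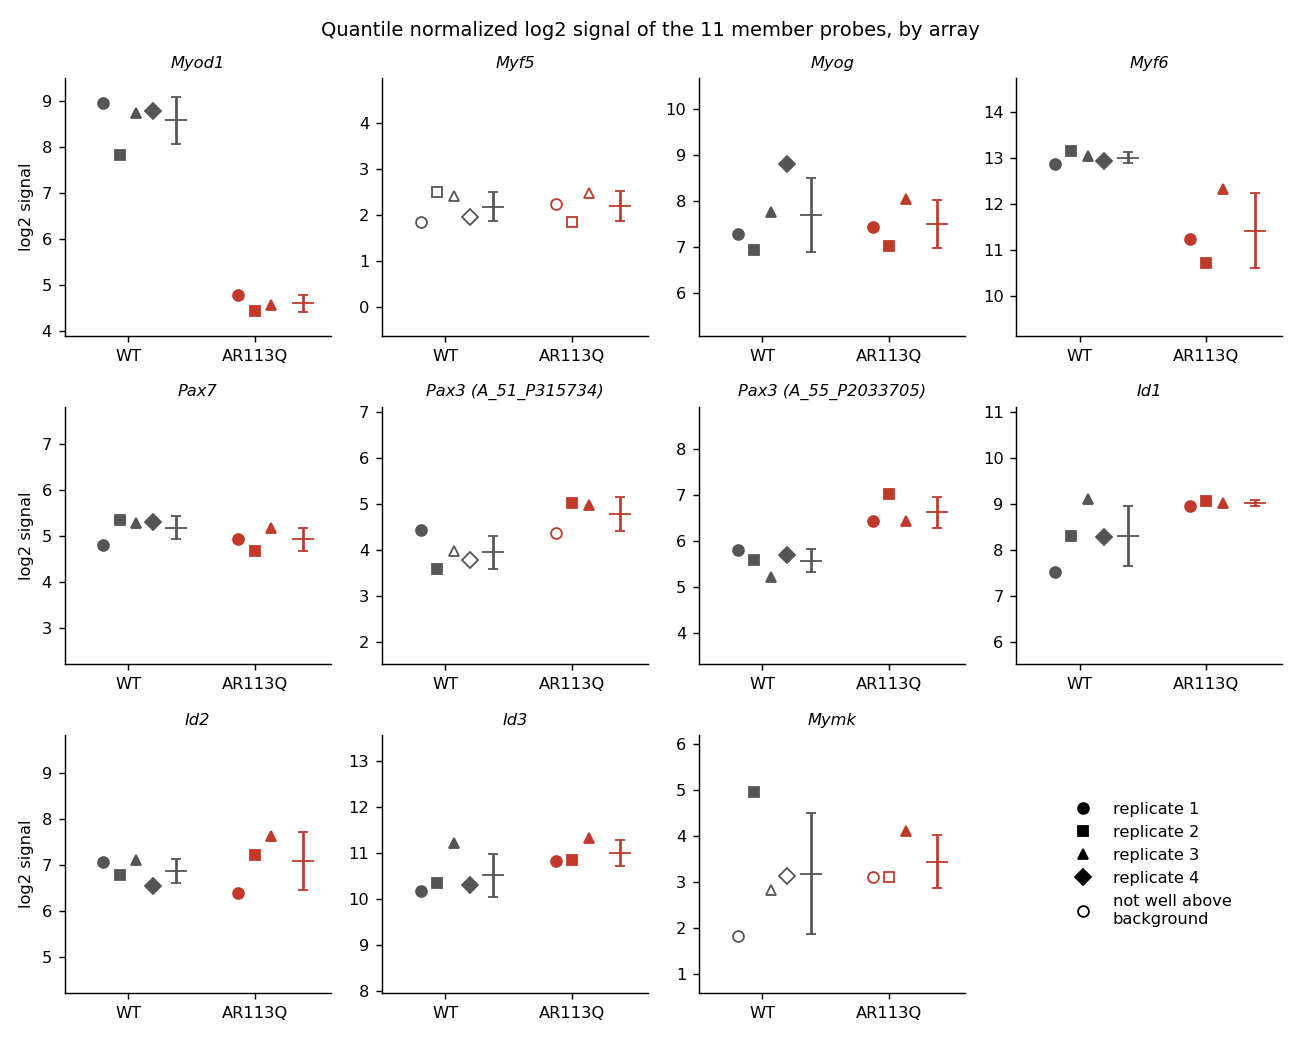
Quantile normalized log2 signal (y axis, arbitrary units) of the 11 member probes in 4 WT arrays (gray) and 3 AR113Q arrays (red), with the mean and SD beside the points. Each panel spans the same log2 range, and open symbols mark arrays where the probe was not well above background. The Myod1 points separate most, with a mean of 8.58 in WT and 4.60 in AR113Q, and the Myog points overlap.

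Myod1 encodes MyoD, the founding myogenic factor, which in adult muscle is found in activated satellite cells and in fast fibers. Its probe is printed in 10 spots per array. The signal was 329, 235, 379 and 385 in WT replicates 1 to 4, and 24.4, 29.9 and 27.7 in AR113Q replicates 1 to 3. All WT values thus lay far above all AR113Q values, although the probe cleared the background mark on each of the 7 arrays. On the log2 scale the WT arrays stood at 8.95, 7.84, 8.74 and 8.79 and the AR113Q arrays at 4.79, 4.43 and 4.57. The means were 8.58 ± 0.50 (SD, n = 4) and 4.60 ± 0.18 (SD, n = 3). Myod1 was thus 15.8-fold lower in AR113Q, a log2 difference of -3.98 ± 0.27 (standard error), and its adjusted p in limma was 8.58e-05. Within an array, the 10 spots had a coefficient of variation of 6.07% to 15.6%, which measures the printing and reading of the probe and not the spread between mice. In bulk muscle, fewer cells of a type and less RNA per cell cannot be told apart, for this gene and for the others.

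The direction of the Myod1 change held in all 19 alternative settings, but its size did not. It was -1.94 with normexp background correction, -2.04 with the mean spot intensity left unsubtracted and -1.24 in the normalized values deposited by the authors (adjusted p = 0.0016 from limma). The AR113Q signals of this probe are low, and by construction normexp adds an offset of 50 while the mean spot intensity keeps the background in. On slide 2, the slide that held both genotypes, the difference between AR113Q replicate 1 and WT replicate 2 was -3.04 on the log2 scale.

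Myf6, also called MRF4, is the myogenic factor of differentiated fibers. Its signal was 4912, 8837, 7605 and 6947 in the WT arrays and 3121, 2281 and 6386 in the AR113Q arrays. Before normalization the signal of AR113Q replicate 3 thus lay within the WT range. On the log2 scale the WT arrays lay close together, and AR113Q replicate 3 stood well above AR113Q replicates 1 and 2 and nearest to WT. The log2 mean of the WT arrays was 13.00 ± 0.12 (SD, n = 4) and that of the AR113Q arrays 11.42 ± 0.82 (SD, n = 3), so Myf6 was 2.99-fold lower, a log2 difference of -1.58 ± 0.34 (standard error) with an adjusted p of 0.00674 in limma. The log2 signals were 12.88, 13.15, 13.05 and 12.94 in WT, and 11.23, 10.71 and 12.32 in AR113Q, so the genotypes did not overlap. For this bright probe the value moved little with background treatment, to -1.49 with normexp and -1.47 in the authors' normalized values, and it was -2.03 without AR113Q replicate 3. Within slide 2 it was -1.91.

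Myog encodes myogenin, which drives the terminal differentiation of myoblasts. Its signal was 111, 130, 193 and 387 in WT and 190, 170 and 310 in AR113Q. The log2 signals were 7.29, 6.93, 7.75 and 8.79 in WT and 7.43, 7.01 and 8.04 in AR113Q. The 3 AR113Q arrays all fell inside the WT range, whose top was set by WT replicate 4. The log2 fold change was -0.20, with a 95% interval of -1.21 to 0.81 (adjusted p = 0.743 from limma), which includes a fall of 1 on the log2 scale. The sign was not stable and turned to 0.17 without WT replicate 4, to 0.042 without AR113Q replicate 2 and to 0.50 within slide 2.

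The region before the Myog start site is shown because the E-box is the site at which the myogenic factors and, through the E proteins, the Id proteins act. These are 250 bases of RefSeq sequence on the plus strand, chr1:134289754-134290003 of GRCm38.p6, with each CANNTG in capitals.
Myog: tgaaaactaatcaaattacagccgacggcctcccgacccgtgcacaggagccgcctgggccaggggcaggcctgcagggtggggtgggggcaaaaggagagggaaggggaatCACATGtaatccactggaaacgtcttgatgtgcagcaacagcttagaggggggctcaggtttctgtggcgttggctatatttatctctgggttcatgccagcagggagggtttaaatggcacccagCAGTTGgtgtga
The stretch holds 2 matches, CACATG and CAGTTG, which begin 138 and 12 bases before the start site. The motif reads the same on both strands, and at least 1 match stood in 66.2% and at least 2 in 31.8% of 32851 promoter windows of that length in the RefSeq table. That table matched 5 of the 10 members (Myog, Myf5, Pax7, Id2 and Id3), and 2 of the 5 windows held a match, the other being CAGCTG before Id2. A match of these letters is a description of the window and not a measured site.

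Myf5, the earliest myogenic factor in the embryo and a factor of quiescent and activated satellite cells, was not well above background on any of the 7 arrays. Its 10-spot probe (chr10:106919974-106920033 of mm9, minus strand) gave signals of 3.08 to 6.73 in WT and 4.16 to 6.55 in AR113Q. No fold change is given, since neither genotype had a measured level. The Mymk probe (chr2:26917594-26917653 of mm9, minus strand) gave 3.05, 35.6, 5.68 and 7.64 in WT and 6.49, 13.7 and 19.7 in AR113Q. It was well above background on WT replicate 2 and AR113Q replicate 3 and on no other array, and the genotypes overlapped.

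Pax3 was the member that rose, by 1 of its probes. Probe A_55_P2033705 gave signals of 41.8, 53.4, 33.4 and 47.9 in WT and 90.8, 170 and 96.7 in AR113Q. Every AR113Q value was above every WT value. The log2 means were 5.58 ± 0.25 (SD, n = 4) and 6.63 ± 0.34 (SD, n = 3). This probe was 2.08-fold higher in AR113Q, a log2 difference of 1.05 ± 0.22 (standard error) with an adjusted p of 0.0055 in limma. The value lay just past the fold threshold, and it was not called with scaling to the 75th percentile (0.86), with normexp (0.49), with the mean spot intensity (0.54), in the authors' normalized values (0.33), without WT replicate 3 (0.94), without AR113Q replicate 2 (0.86) or with slide as a fixed effect (0.85). All of these values were above 0.

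Probe A_51_P315734, which is printed in 10 spots, gave signals of 16.9, 14.8, 15.1 and 13.5 in WT and 17.8, 44.1 and 36.4 in AR113Q. It was well above background on 2 of 4 WT arrays and 2 of 3 AR113Q arrays, so part of each group lies at the limit of measurement. On the log2 scale AR113Q replicate 1 (4.36) lay among the WT arrays (3.59 to 4.43), and AR113Q replicates 2 and 3 (5.03 and 4.96) lay above them. Its log2 fold change of 0.84 ± 0.25 (standard error) had an adjusted p of 0.0275 in limma and lay below the fold threshold. It was 1.05 and was called without AR113Q replicate 1. It was 0.52 (adjusted p = 0.229 from limma) with scaling to the 75th percentile, 0.20 with normexp and 0.17 with the mean spot intensity. The adjusted p also rose past 0.05 with the intensity trend, the replicate block, slide as a fixed effect or no filter, and when any of WT replicates 2, 3 and 4 or AR113Q replicates 2 and 3 was left out.

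Pax7, the defining factor of satellite cells, was dim but well above background on all 7 arrays (chr4:139294364-139294423 of mm9, minus strand). Its signal was 21.4, 45.0, 34.7 and 36.4 in WT and 27.3, 34.3 and 41.1 in AR113Q. The log2 signals overlapped, at 4.79, 5.33, 5.27 and 5.31 in WT and 4.93, 4.67 and 5.17 in AR113Q. The log2 fold change was -0.25, with a 95% interval of -0.71 to 0.21 (adjusted p = 0.336 from limma). It was -0.51 (adjusted p = 0.0758 from limma) with scaling to the 75th percentile, -0.38 without WT replicate 1, -0.13 without AR113Q replicate 2, -0.04 with normexp, -0.03 with the mean spot intensity and -0.02 in the authors' normalized values, and it was not called in any setting. WT replicate 1, the lowest of its group, stood apart from the other WT arrays.

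The means of Id1 and Id3 were higher in AR113Q muscle but did not pass the test, and the difference in Id2 was nearer to 0. Id1 (chr2:152563083-152563142 of mm9, plus strand) gave signals of 128, 319, 480 and 271 in WT and 610, 740 and 610 in AR113Q. After quantile normalization WT replicate 3 (9.10) reached the AR113Q arrays (8.95, 9.07 and 9.02), while the other WT arrays stood at 7.51, 8.29 and 8.27. The log2 fold change was 0.72, with a 95% interval of -0.03 to 1.47 (adjusted p = 0.109 from limma). Id3, whose probe is without a position in the array annotation, gave 751, 1250, 2036 and 1084 in WT and 2294, 2498 and 3119 in AR113Q. Here too WT replicate 3 (11.21) stood above the other WT arrays (10.17, 10.34 and 10.30) and among the AR113Q arrays (10.81, 10.84 and 11.33). The log2 fold change of Id3 was 0.49, with a 95% interval of -0.15 to 1.12 (adjusted p = 0.184 from limma).

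Without WT replicate 3, Id1 differed by 0.99 (adjusted p = 0.0184 from limma) and Id3 by 0.72 (adjusted p = 0.0282 from limma), both still under the fold threshold. Other settings made the differences smaller. Id1 was at 0.46 (adjusted p = 0.204 from limma) without WT replicate 1, 0.44 with normexp, 0.47 with the mean spot intensity and 0.40 (adjusted p = 0.19 from limma) in the authors' normalized values. Id3 was at 0.32 (adjusted p = 0.41 from limma) without AR113Q replicate 3.

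Id2 (chr12:25778904-25778963 of mm9, minus strand) gave 94.7, 119, 126 and 86.1 in WT and 87.8, 193 and 231 in AR113Q. On the log2 scale its AR113Q arrays (6.39, 7.20 and 7.63) lay on both sides of the WT arrays (6.55 to 7.11). The log2 fold change was 0.20, with a 95% interval of -0.48 to 0.88 (adjusted p = 0.609 from limma), with 0.046 after scaling to the 75th percentile, 0.54 without AR113Q replicate 1 and a sign that turned within slide 2 (-0.39) and without AR113Q replicate 3 (-0.076).

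**Figure D2:**
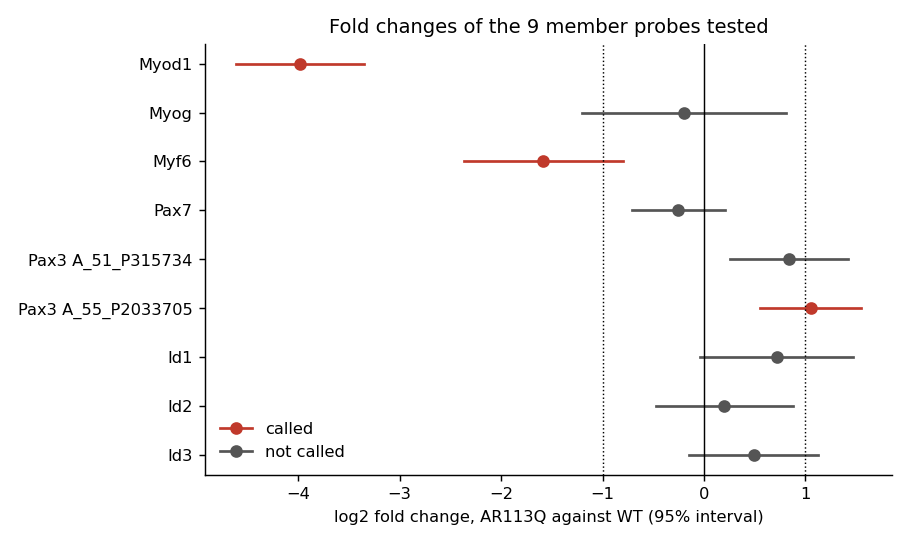
Log2 fold change of AR113Q against WT (x axis) of the 9 member probes tested, with 95% intervals from limma as bars. Dotted lines mark the fold threshold of 1 in either direction, and red marks probes that were called. The interval of Myod1 (-4.61 to -3.35) lies apart from all others, and those of Myog, Pax7, Id1, Id2 and Id3 include 0.

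To ask whether members changed unequally, the log2 difference of a pair of members was taken within each array and compared between genotypes by a two-sided exact permutation test over the 35 splits of the 7 arrays. The 8 pairs considered gave 6 that could be measured, since both pairs with Myf5 could not. Myog minus Myod1 ranged from -1.66 to 0.01 in WT and from 2.58 to 3.47 in AR113Q, a shift of 3.78. Myf6 minus Myod1 shifted by 2.40 and Pax7 minus Myod1 by 3.73. For these 3 pairs the genotypes did not overlap and the exact permutation p was 0.0286, the smallest that 35 splits allow. It became 0.0571 after adjustment over the 6 pairs and did not pass. No pair could have passed unless more than 3 pairs reached that smallest p. All 3 pairs subtract the same Myod1 values, so they are not separate results. The size of all 3 shifts depended on the processing. With normexp they were 1.78 for Myog, 0.45 for Myf6 and 1.90 for Pax7, each minus Myod1, and in the authors' normalized values they were 1.22, -0.23 and 1.22 in the same order.

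The Id genes showed no such separation. Id1 minus Id2 shifted by 0.52, Id1 minus Id3 by 0.23 and Id2 minus Id3 by -0.29, with exact permutation p values of 0.40, 0.457 and 0.40.

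**Figure D3:**
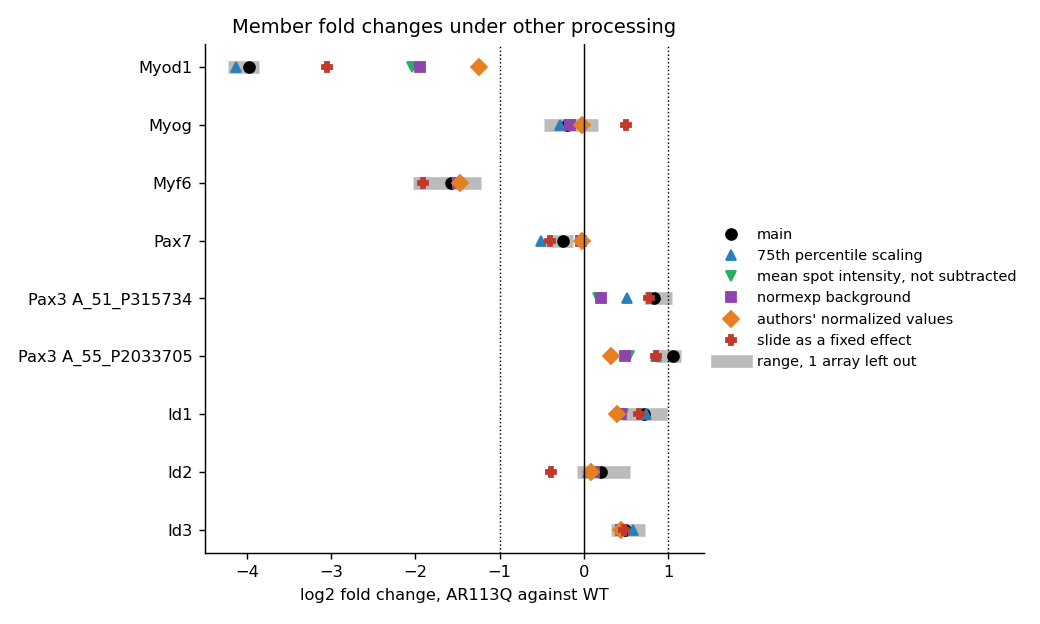
Log2 fold change of AR113Q against WT (x axis) of each tested member probe in the main processing (black) and in 5 other settings, with the range over leaving out 1 array at a time as a gray bar. Myod1 runs from -4.23 to -1.24 and stays below -1, Myf6 runs from -2.03 to -1.23, and Pax3 A_55_P2033705 lies on both sides of 1.

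The partners and regulators of these factors were taken as gene lists, with each gene represented by its brightest tested probe. Of 16577 genes tested, 11.2% were called higher and 13.1% lower, 24.3% in all, and their median log2 fold change was -0.01. The 3 E proteins that pair with the myogenic factors, Tcf3 (-0.10), Tcf4 (0.39) and Tcf12 (0.42), were not called. Among 20 regulators that act upstream of the myogenic genes, 3 were called lower and 0 higher. Meox1, a homeobox factor of the embryonic somite, was called lower, from 5.85 to 6.72 in WT to 3.21 to 4.67 in AR113Q, where it was well above background on 1 of 3 arrays, so that the size of its change is not fixed by these arrays. Dach1, a transcriptional cofactor, fell by 1.25 on the log2 scale. Mef2c, a MADS-box partner of the myogenic factors, fell by 1.10. In the same list Six4 (-0.11), Mef2a (0.14) and Mef2d (0.21) were not called. None of the list was called with normexp, the authors' normalized values or the mean spot intensity. Higher calls appeared when an array was left out, 2 without AR113Q replicate 3 and 1 without WT replicate 2 or WT replicate 4.

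Of 13 factors outside the Id family that can hold back the myogenic factors, 11 were tested, 4 were called lower and 1 higher, with a median of -0.72. The largest falls were in Bhlhe41 (-1.67, standard error 0.21) and Bhlhe40 (-1.60, standard error 0.34), helix-loop-helix repressors that also belong to the circadian clock. Snai1 (-1.28) and Snai2 (-1.16), zinc finger repressors that compete for E-boxes, fell as well. Msc, or musculin, a helix-loop-helix repressor, rose by 1.06. These counts became 1 lower and 0 higher with normexp, the authors' normalized values or the mean spot intensity, and the rise of Msc was also lost without WT replicate 1 or AR113Q replicate 1 and with scaling to the 75th percentile, where 5 were called lower. Id4, the remaining Id gene, stood at -0.72 with an adjusted p of 0.0595 from limma.

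Satellite cell genes moved in both directions. Of 20 genes beside Pax7 and Myf5, 19 were tested, 4 rose and 3 fell, with a median of -0.15. Calcr, the calcitonin receptor of quiescent satellite cells, was well above background on all 4 WT arrays and on 0 of the AR113Q arrays, so only a bound is known, and it was at least 2.11-fold lower. Cd34, a surface antigen that endothelial and stromal cells share, fell by 1.88. Peg3 rose by 2.93, and Sdc4, a heparan sulfate proteoglycan, rose by 1.92, each well above background on 3 of 4 WT arrays. Cdh15 (-0.39), Megf10 (-0.14), Itga7 (-0.55) and Fgfr4 (-0.45) were not called. With normexp 2 were called higher and 1 lower, and in the authors' normalized values 1 and 1.

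Of 18 genes of myoblast fusion and developmental muscle, 14 were tested, 3 fell and 1 rose. Actc1, the cardiac and fetal actin, fell by 2.20, with WT arrays from 13.77 to 16.46 and AR113Q arrays from 12.05 to 14.00, which overlap. Cdon, a surface receptor that promotes myogenesis, fell by 1.40, while its relative Boc rose by 1.03. With normexp, the authors' normalized values or the mean spot intensity, 1 was called lower and 0 higher. The rise was also lost with scaling to the 75th percentile and without WT replicate 3 or AR113Q replicate 2, and there were 2 rises without WT replicate 2. The embryonic and perinatal myosin genes Myh3 (0.67, adjusted p = 0.65 from limma) and Myh8 (0.24) were not called. Myh3 was well above background on 2 of 4 WT arrays, which ran from 3.13 to 8.10, so its change is not fixed by these arrays. The Myh8 probe was bright, with a log2 mean of 17.08 in WT, and whether it also reads other myosin genes was not tested.

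Genes that respond to denervation, a setting in which Myog is known to rise, included the largest rise among the genes of these lists. Of 14 genes, 13 were tested, 4 rose and 2 fell. Runx1 rose by 5.62 (standard error 0.30, adjusted p = 5.03e-05 from limma), from 4.37 to 5.10 in WT, where it was well above background on 3 of 4 arrays, to 9.79 to 10.89 in AR113Q. Gadd45a rose by 2.39, and the genes of the neuromuscular junction Chrna1 and Musk rose by 1.77 and 1.62. Hdac9, a deacetylase that represses muscle genes, was well above background on 0 of the AR113Q arrays and at least 3.02-fold lower. Chrne, the adult acetylcholine receptor subunit, fell by 1.25. With normexp, the authors' normalized values or the mean spot intensity, 4 were called higher and 0 lower, and without AR113Q replicate 1 there was 1 lower. Hdac4 (0.05) and Chrnd (0.20), like Myog, were not called.

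Id genes are known targets of bone morphogenetic protein (BMP) signaling, whose components were mixed. Of 11 ligands 7 were tested, 2 were called higher and 2 lower. Bmp4 rose by 1.08. Gdf5 was well above background on 1 of 4 WT arrays and overlapped between the genotypes (3.59 to 5.44 in WT, 4.89 to 6.07 in AR113Q), so that the size of its change is not fixed. Bmp5 (-1.32, well above background on 2 of 3 AR113Q arrays) and Bmp1 (-1.23), a protease named with the ligands, fell. Among 11 receptors and co-receptors, Bmpr1b rose by 1.78, while Acvrl1 (-2.28), an endothelial receptor, and Hjv (-1.32), the hemojuvelin co-receptor, fell. Of 6 Smads 4 were tested, and Smad1, which carries the signal to the nucleus, rose by 1.24. Of 11 inhibitors 9 were tested, among which Smurf1, a ubiquitin ligase, rose by 1.46 and Chrdl1, a secreted antagonist, by 1.08. Of 15 cell cycle genes 10 were tested, Rrm2 rose by 1.79, and Mki67 (-1.26, well above background on 2 of 3 AR113Q arrays) and Mcm2 (-1.23) fell.

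Many of these calls depended on the processing. With normexp, the authors' normalized values or the mean spot intensity, none of the cell cycle genes or Smads was called, no receptor or inhibitor was called higher, and 1 ligand was called in each direction. Of the ligands, 0 were called higher without WT replicate 1 or AR113Q replicate 3, 1 was called higher without WT replicate 3, WT replicate 4 or AR113Q replicate 1, and 1 was called lower without AR113Q replicate 1. With scaling to the 75th percentile 1 ligand and 1 inhibitor were called higher. There was 1 inhibitor called higher without WT replicate 1, WT replicate 3, AR113Q replicate 1 or AR113Q replicate 3, and 1 cell cycle gene called lower without WT replicate 2, WT replicate 4, AR113Q replicate 1 or AR113Q replicate 3.

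**Figure D4:**
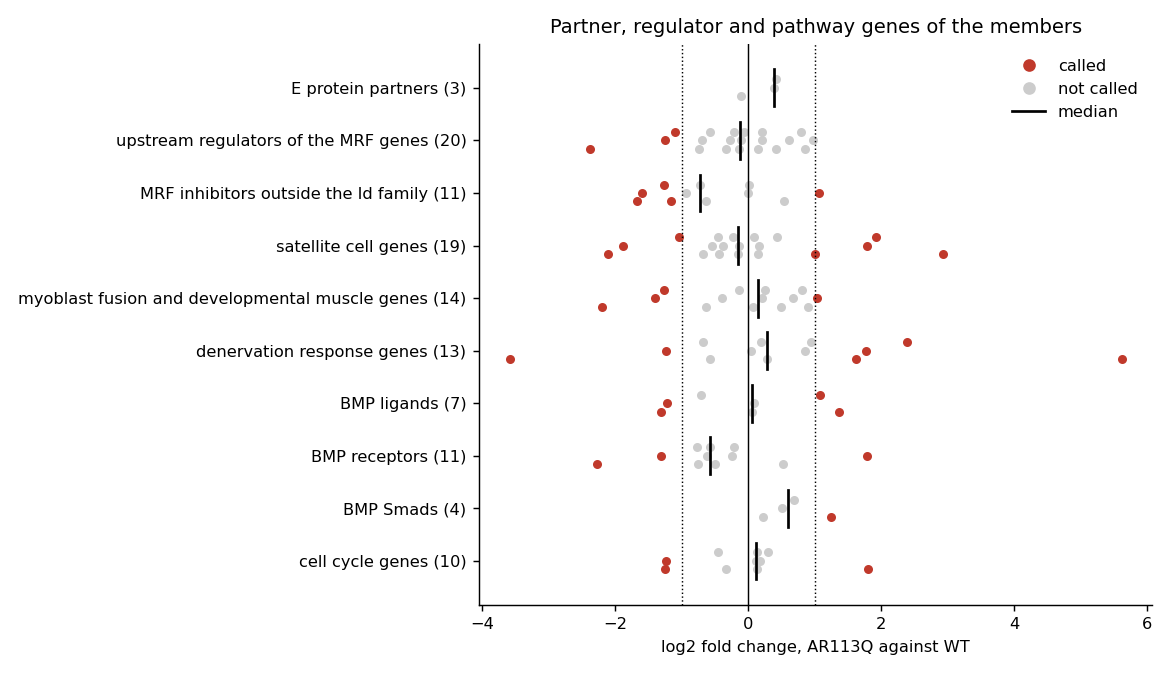
Log2 fold change of AR113Q against WT (x axis) of each tested gene of 10 lists (y axis, with the number tested), with called genes in red and the median of each list as a black line. Runx1 among the denervation genes lies at 5.62, and the medians lie between -0.72 and 0.60.

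The tissue matched its label, as the 10 muscle fiber genes were well above background on all 7 arrays. Mylpf was called lower, at -1.37, and their median was -0.23. With scaling to the 75th percentile 3 of the 10 were called lower and the median was -0.67, and with the mean over the probes of a gene 0 were called. Markers of other cell types moved with the genotype, and their part in the results above was not tested. Fibroblast markers had 6 of 10 called lower and 0 higher (median -2.03), and their median shift from the WT mean was -0.26 to 0.12 in the WT arrays and -2.89 to -1.48 in the AR113Q arrays. The collagen genes Col3a1 (-4.62) and Col1a1 (-3.27) and Pi16 (-2.98) fell, while Dcn (0.41) and Pdgfra (-0.27) were not called. Adipocyte markers had 5 of 7 lower (Adipoq at -2.71 and Retn at -2.31), Schwann cell markers 3 of 7 (S100b at -1.23) and mural cell markers 1 of 7 (Cspg4 at -1.29). Macrophage markers had 3 of 9 lower (Adgre1 at -1.94 and Lyz2 at -1.30) and 2 higher (Cd14 at 1.42 and Cd163 at 1.18). Endothelial markers had a median of 0.01, with Cldn5 higher by 1.30.

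The fibroblast count was 6 or 7 with any array left out and 6 with normexp, the authors' normalized values or the mean spot intensity, while the other counts were less stable. The adipocyte count was 3 without WT replicate 2, WT replicate 4, AR113Q replicate 1 or AR113Q replicate 2. The Schwann cell count was 0 without WT replicate 1, 1 without WT replicate 2, AR113Q replicate 1 or AR113Q replicate 2, and 1 with normexp, the authors' normalized values or the mean spot intensity. The mural cell count was 0 with those settings and 2 without AR113Q replicate 3. In the authors' normalized values 1 macrophage marker was called in each direction, and 1 was called higher with scaling to the 75th percentile, normexp or the mean spot intensity or without AR113Q replicate 2. The endothelial call was lost without AR113Q replicate 2 or AR113Q replicate 3.

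Slow fiber genes varied between mice rather than between genotypes. Their median shift was -2.15, 2.01, 1.92 and -1.97 in WT replicates 1 to 4 and -1.39, -1.67 and 3.62 in AR113Q replicates 1 to 3, and Atp2a2 was the gene called, higher by 1.42, a call that was lost without WT replicate 1, WT replicate 4, AR113Q replicate 1 or AR113Q replicate 3. Fast fiber genes had 1 of 10 called, Mylpf, and 2 with scaling to the 75th percentile. AR113Q replicate 3, the array with the highest shift of slow fiber genes, was also the AR113Q array with the highest Myog, Myf6, Pax7, Id2, Id3 and Mymk log2 signal, while its Myod1 log2 signal of 4.57 lay between those of the other two. The part of fiber type in these values was not tested.

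The genes whose centered log2 profile over the 7 arrays was nearest to a called member were found among 13685 genes well above background on all arrays. Near to Myod1 were LOC102637409, an uncharacterized RNA named on the array, and Ccnd1, which encodes cyclin D1, with root mean square differences of 0.26 and 0.32. Their log2 fold changes were -3.88 and -3.85. Nearest to Myf6 were Calml4 (0.24), Taco1 (0.24) and Ptprr (0.24), and nearest to Pax3 were Ric3 (0.10), Foxp1 (0.11) and Boc (0.13), as root mean square differences. These values describe likeness over 7 arrays, part of which is the difference between the genotypes.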

How the data were processed

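Quadriceps RNA of 4 WT and 3 AR113Q mice was measured on single-dye arrays, and nothing was pooled. The authors scanned the arrays and extracted spots with Agilent Feature Extraction 10.7.3.1, per the labels. The deposited scanner files hold an intensity per spot that is background-subtracted and not normalized between arrays. The authors also deposited log2 values, described in the methods as quantile normalized, which were used as an alternative. Probe positions are on mm9, and the GRCm38.p6 RefSeq table served for names (28330 probes) and promoter sequence.

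Control and outlier spots were left out, log2 intensities were quantile normalized, and spots of a probe were averaged. Probes well above background, in 0.5 or more of their spots, on at least 3 arrays were fitted with limma 3.58.1 (lmFit and eBayes, R 4.3.3) on genotype, with Benjamini-Hochberg adjustment over all 20991 probes. For lists, the brightest tested probe of each of 16577 genes was fitted alone. Intervals are at 95%. The fit was tested on simulated data for this comparison over 20991 probes. It found 83% of 200 probes that were given a log2 change of 2, made 5 calls among the rest, and made 0 where no probe was changed. P-values measure the spread between these mice, whose small number limits precision.

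Members and lists were chosen with earlier results of these data known. Named are all members, the 2 genes of each list with the largest rise and the 2 with the largest fall among those called, and the 3 nearest profiles of each called member. Other genes were chosen after their values were seen: Mef2c, Snai1, Snai2, Chrna1, Musk, Pi16, Tcf3, Tcf4, Tcf12 and the genes given as not called. A few genes that the rule would name are left unreported.

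Alternatives were other scaling, background correction, filters, outlier spots kept, the authors' values, an intensity trend, slide or replicate number as a block, array weights, no fold threshold, a mean over the probes of a gene and each array left out. The mean spot intensity was added after the data were seen. The arrays lay on 5 slides with 1 scan date, and slide 2 alone held both genotypes.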

Additional observations from a re-analysis of the deposited data

Results flagged for a closer look

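Among the WT values of the 11 member probes, 2 had an array far from the other three by Dixon's ratio of the gap to the range, and chance sets apart about 1 in 20 groups. For Pax7 this was WT replicate 1 (ratio 0.887), at a log2 signal of 4.79 against 5.27 to 5.33 in the others. For Id3 it was WT replicate 3 (ratio 0.84), at 11.21 against 10.17 to 10.34. The AR113Q group, with 3 arrays, was too small for this check.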

How the results depend on the processing

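Over 19 alternatives, the Myod1 and Myf6 calls were lost with slide as a fixed effect and in no other (Myod1 -3.04, adjusted p = 0.0508; Myf6 -1.91, adjusted p = 0.0532, both from limma). That fit called no gene of any list, leaves 1 residual degree of freedom, takes the difference from slide 2 alone, and called 0 probes, 0 members higher and 0 lower, with 7928 probes and 2 members at an unadjusted p of at most 0.05 in limma. The count of 5208 probes became 2088 with normexp, 1592 (8.56% of those listed) in the authors' normalized values, 2264 with the mean spot intensity and 9199 (43.8%) without a fold threshold. The members called higher became 0 with scaling to the 75th percentile, normexp, the authors' normalized values and the mean spot intensity, and 2 without a fold threshold. Leaving out each array gave 4454 to 5563 probes, 0 to 2 members higher and 2 lower. The count of members higher was 0 without WT replicate 3 or without AR113Q replicate 2, and 2 without AR113Q replicate 1.

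Signs that turned were those of Myog (0.50 with slide as a fixed effect, 0.17 with the replicate block or without WT replicate 4, 0.042 without AR113Q replicate 2, and -0.47 to 0.17 over the arrays left out), Id2 (-0.39 with slide as a fixed effect, -0.076 without AR113Q replicate 3, and up to 0.54 over the arrays left out), Id1 minus Id3 (-0.0055 with normexp, -0.044 in the authors' values) and Myf6 minus Myod1 (-0.23 in the authors' values). The cause was not tested. Replicate numbers did not pair the arrays, since deviations of same-numbered arrays correlated at 0.0407, -0.0162 and 0.156. The replicate block gave 5190 probes, 1 member higher and 2 lower. No AR113Q array shares the number of WT replicate 4, so the members had the same fold changes here as without that array. The values of the dim Pax3 probes and of Myod1, dim in AR113Q, moved with background treatment.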
